A study of Mus musculus with 30 samples.

Results

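Undifferentiated mouse embryonic stem (ES) cells without functional Jmj were compared with control cells before any differentiation was started. The comparison used the 5 arrays of day 0 out of the 30 arrays of the series: 3 arrays of null cells, labelled Jmj (-/-) mutant, and 2 arrays of Fl/Fl cells, labelled Jmj (fl/fl) and called wild type in the labels. Arrays were chosen by their labels for genotype and day, not by any measured value. Both genotypes were ES cells grown under what the labels call standard conditions. Differentiation in the rest of the series was started by withdrawing LIF, so the day 0 cells had not yet lost it. The sources used here do not say how the null cells were derived, whether they are 1 clone, whether feeder cells were used or what sex the lines are. The labels call the arrays biological replicates without saying that they came from separate cultures, so the p-values speak of the spread among these arrays alone, and that spread may be technical.

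Jmj (Jumonji) is now named Jarid2. Its protein binds Polycomb repressive complex 2 (PRC2), which methylates lysine 27 of histone H3 at the silent promoters of developmental genes, and a second complex, PRC1, acts at many of the same promoters. LIF signals through STAT3 and holds mouse ES cells in the naive state, the counterpart of the early epiblast. When naive cells move towards the formative and primed states of the later epiblast, factors such as Otx2, Pou3f1 and Fgf5 are switched on, driven in part by FGF and by nodal and activin.

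The values are probe set intensities on a linear scale, and 1 probe set stood for each of 18194 genes. A difference is null minus Fl/Fl on the scale log2(intensity + 4), given with its standard error (SE), and a gene passed where limma's adjusted p was under 0.05. All 10 ES cell markers read at least 100 in each of the 5 arrays, and their sums were 72243 and 65640 in Fl/Fl against 70099, 57596 and 57965 in null. Of 12 feeder fibroblast markers, 7 read under 20 in all 5 arrays (Col6a1, Thy1, Postn, Lum, Dcn, Twist2 and Prrx1). The summed level of the 12 was 557 and 305 in Fl/Fl against 352, 129 and 107 in null. Col1a1 alone gave 341 and 124 of these sums in Fl/Fl and 90, 16 and 8 in null. Null replicate 1 stood apart from null replicates 2 and 3. Its Pearson correlation across genes was 0.9917 with Fl/Fl replicate 2 and 0.9849 and 0.9856 with the other null arrays, which correlated at 0.9947 with each other. The actin 3' to 5' ratio, a sign of RNA integrity, was 1.520 and 2.037 in Fl/Fl and 2.024, 1.430 and 1.386 in null. Tmem87a read 9 and 12 in Fl/Fl and 9 in null replicate 1, but 172 and 259 in null replicates 2 and 3, and Meg3 read 829 and 1038, then 695, 26 and 27. The Y-linked gene Eif2s3y read 196 and 178 in Fl/Fl and 259, 768 and 981 in null, and 11 to 16 in some null arrays of later days. Counts are therefore given with and without null replicate 1, and single values for the genes in which it lay far from the other null arrays. In bulk RNA, fewer cells of a type and less RNA per cell cannot be told apart.

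Falls outnumbered rises. In null, 45 genes rose (0.247% of the genes tested) and 169 fell (0.929%), 214 in all (1.18%), and 13 of the rises (0.0715%) and 55 of the falls (0.302%) were at least 2-fold. The arrays of the groups did not overlap in 2791 genes (15.3%), with null higher in 5.44% and lower in 9.9% of all genes, and 2124 genes (11.7%) had an unadjusted p under 0.05. Counts of both kinds in the lists below are to be read beside these shares. Among the 10089 genes with at least 1 day 0 array of 20 or more, 34 rose (0.337%) and 99 fell (0.981%), 133 in all (1.32%). The remaining 11 rises and 70 falls lay under 20 in every day 0 array. Some of these differed by 1 whole unit: Mmp10, a matrix protease, read 6 in both Fl/Fl arrays and 5 in every null array, and Olfr1507, an olfactory receptor, read 8 and then 7. They are not described further. Quantile normalization gave 60 rises and 142 falls, and centring each array on its brighter genes, which moved the median of all genes from −0.01 to 0.12, gave 23 rises and 44 falls. The median difference of the 99 falls was −0.85, −1.22 and −1.17 in null replicates 1, 2 and 3, and null replicate 1 changed least in 64 of them. Fitting the 5 day 0 arrays alone called 123 genes, 36 of them among the 214. Without null replicate 1 the count was 669 in place of 214, without Fl/Fl replicate 2 it was 492, and without null replicates 2 or 3 it was 134 or 103. With null replicate 1 as the only null array, a choice made after seeing the data, it was 465, of which 77 were among the 214. There 342 genes were higher in null and 123 lower, so rises outnumbered falls with that array alone. All 133 called genes that reached 20 kept their direction with null replicate 1 alone, and 45 of them passed.

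**Figure D1:**
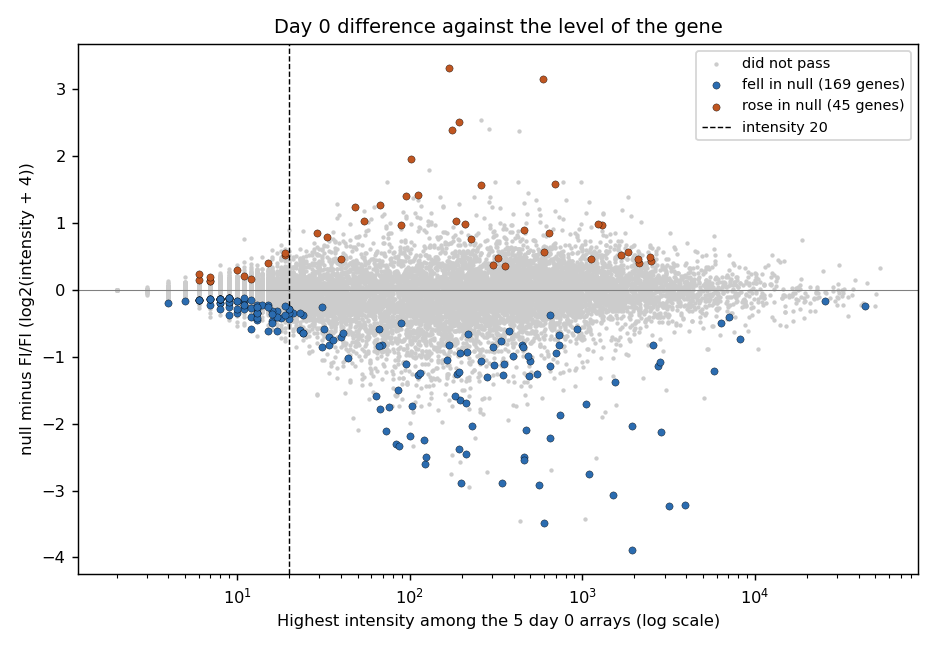
Difference between null and Fl/Fl at day 0 (vertical axis, log2(intensity + 4)) against the highest intensity of the gene in the 5 day 0 arrays (horizontal axis, log scale). Each point is 1 of 18194 genes; the 45 rises are orange, the 169 falls blue, and the dashed line at 20 separates the 11 rises and 70 falls that lie near the floor of the arrays.

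The rise with the smallest adjusted p among genes that reached 20 was Inhbb, which encodes the beta B subunit shared by activin B and inhibin B. Inhbb read 15 and 32 in Fl/Fl and 94, 97 and 102 in null, a difference of 1.96 (SE 0.147, adjusted p = 3.95e-08). The 3 null arrays, null replicate 1 included, lay close together and well above both control arrays, which differed between themselves. The fit shares its spread with other groups in which Inhbb was near the floor (5 or 6 in all 7 arrays of day 2), and the 5 day 0 arrays fitted alone gave an adjusted p of 0.346, the highest of its 18 alternatives, whose lowest was 5.74e-14. A second probe set of Inhbb read 3 to 5 throughout and carries no information. Inhbb differed little after day 0: at day 2 the difference was 0.08, and the change from day 0 was −1.88 (adjusted p = 1.58e-05).

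Of the 22 measured genes of nodal and activin signalling, Inhbb rose, none fell and 21 did not pass, and the list median was 0.01 beside −0.01 over all genes. Nodal, the ligand, read 790 and 1323 in Fl/Fl and 1520, 1535 and 1616 in null (0.60, SE 0.304, adjusted p = 0.454). Its inhibitors Lefty1 and Lefty2, which are also its targets, differed by 0.00 (SE 0.435) and 0.01 (SE 0.452). Fst, which binds and blocks activin, differed by 1.17 and did not pass. The 250 bases upstream of the annotated start of Inhbb (chr1:119422249-119422498, minus strand, GRCm38.p6, from RefSeq) are shown because this promoter belongs to the rise with the smallest adjusted p. Capitals mark its 21 CG dinucleotides, the substrate of DNA methylation and a feature of promoters held by Polycomb.
Inhbb: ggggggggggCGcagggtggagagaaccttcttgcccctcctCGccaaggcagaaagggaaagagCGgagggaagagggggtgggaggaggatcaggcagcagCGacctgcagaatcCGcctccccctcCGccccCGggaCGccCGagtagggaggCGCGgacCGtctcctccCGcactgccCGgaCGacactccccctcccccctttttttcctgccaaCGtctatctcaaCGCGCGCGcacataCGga
The ratio of observed to expected CG was 0.73 there. A ratio of at least 0.6 was found in 65.6% of the 32 rises with a promoter entry that reached 20, in 53.6% of the 84 such falls, and in 71.7% of the 8228 such genes with an entry.

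Genes of the formative and primed epiblast had the most rises of the 54 lists if Otx2 is counted. Of 17 measured members 3 rose (beside 0.247% of all genes), none fell and 14 did not pass, and the median was 0.35. Besides Otx2, these were Pou3f1 and Foxd3. With Otx2 set aside the count equals that of the lysosome and autophagy list, where Ctsz and Mitf rose, Mitf under 20 in every day 0 array. Pou3f1, a POU factor of the formative epiblast also known as Oct6, read 153 and 232 in Fl/Fl and 465, 693 and 586 in null (1.59, SE 0.358, adjusted p = 0.0283). Every null array lay above both control arrays, and a second probe set gave 2.06. The call ended without Fl/Fl replicate 1 (adjusted p = 0.261), null replicate 2 (0.106) or null replicate 3 (0.0905), and over 19 alternatives the adjusted p ran from 9.42e-05 to 0.397. Foxd3, a forkhead factor needed in the epiblast, read 16 and 19 against 33, 35 and 54 (1.03, SE 0.178, adjusted p = 0.00424). It is dim, but the groups did not overlap and it passed with any 1 day 0 array left out. Foxd3 did not pass in the limma fit of the 5 day 0 arrays alone (adjusted p = 0.527).

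Other members of the same list did not pass. Dnmt3a, a de novo DNA methyltransferase, read 507 and 578 in Fl/Fl and 1845, 1237 and 1265 in null, with no overlap (1.39, SE 0.512, adjusted p = 0.242). Lef1, which acts with beta-catenin at Wnt targets, also differed by 1.39, and Fgf5, a classic marker of primed cells, by 0.88. Cdh2, the mesenchymal cadherin, lay on the other side at −0.72. With null replicate 1 as the only null array 2 members of the list rose, and without it 4 rose.

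**Figure D2:**
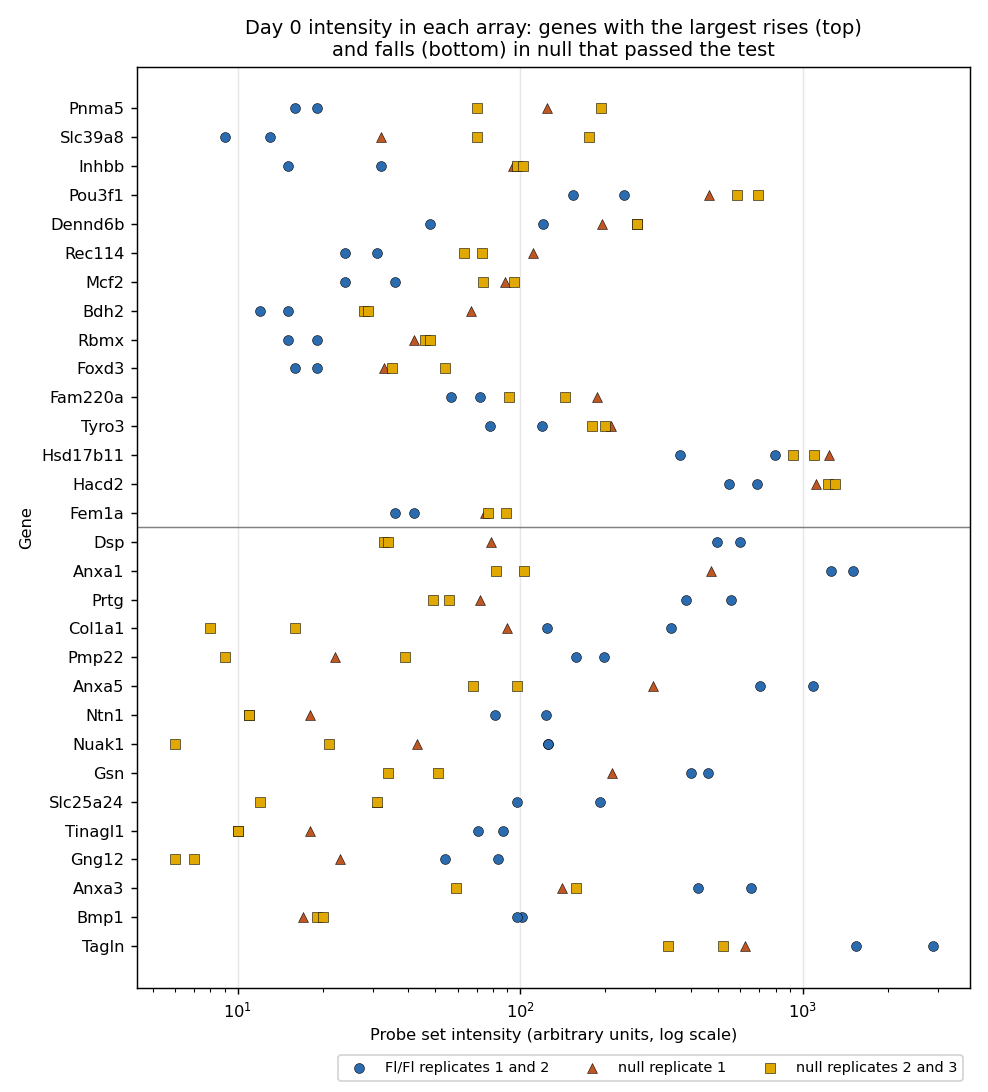
Intensity of the 15 largest rises (above the grey line) and the 15 largest falls (below it) in each of the 5 day 0 arrays, on a log scale; keratins, Acta2, Otx2 and unnamed gene models are left out. Blue circles are the 2 Fl/Fl arrays, the orange triangle is null replicate 1 and yellow squares are null replicates 2 and 3; for Anxa1, Gsn and Col1a1 the triangle lies between the other null arrays and Fl/Fl.

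The remaining large rises came from varied gene classes. Pnma5, of the paraneoplastic antigen family, had the largest difference at 2.52 (SE 0.534, adjusted p = 0.0192), with 19 and 16 in Fl/Fl and 124, 70 and 193 in null. Slc39a8, a zinc and manganese importer, read 9 and 13 against 32, 175 and 70 (2.39, SE 0.562, adjusted p = 0.0363). Both were near the floor in Fl/Fl and spread widely among the null arrays. The call of Pnma5 ended without Fl/Fl replicate 1 (0.0754), Fl/Fl replicate 2 (0.073) or null replicate 3 (0.1), and over 19 alternatives its adjusted p ran from 0.00431 to 0.447. That of Slc39a8 ended without Fl/Fl replicate 1 (0.213) or 2 (0.0654) or null replicate 2 (0.161) or 3 (0.097), within a range of 0.000347 to 0.686. Slc39a8 differed by 2.95 without null replicate 1 and by 1.28 with it as the only null array. It was also higher in null at day 2 (2.80), day 4 (2.17) and day 6 (2.44), each past the threshold.

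Mcf2, a guanine nucleotide exchange factor, read 36 and 24 in Fl/Fl and 88, 95 and 74 in null (1.41, SE 0.235, adjusted p = 0.00291). Rec114, a protein of the machinery that starts meiotic recombination, read 24 and 31 against 111, 63 and 73 (1.42, SE 0.218, adjusted p = 0.00143). Fem1a, a substrate receptor of a ubiquitin ligase, read 36 and 42 against 75, 77 and 89 (0.97, SE 0.107, adjusted p = 2.45e-05). All 3 passed with any 1 day 0 array left out, and their null arrays lay clear of the control arrays. In the limma fit of the 5 day 0 arrays alone they did not pass, with adjusted p of 0.304 for Mcf2, 0.491 for Rec114 and 0.171 for Fem1a. A second probe set of Rec114 gave 2.01. Fem1a, like Inhbb, differed little at day 2 (0.11), and its change from day 0 was −0.86 (adjusted p = 0.0104).

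Hacd2, Hsd17b11 and Tyro3 were also among the 15 largest rises. Hacd2, which dehydrates an intermediate of very long chain fatty acid synthesis, read 547 and 688 in Fl/Fl and 1111, 1222 and 1302 in null (0.97, SE 0.192, adjusted p = 0.012). Hsd17b11, a short-chain dehydrogenase found on lipid droplets, read 368 and 795 against 1233, 919 and 1090 (0.98, SE 0.212, adjusted p = 0.0224). The control arrays of Hsd17b11 differed widely: without Fl/Fl replicate 1 its adjusted p was 0.467 and without null replicate 3 it was 0.0729, within a range of 1.7e-05 to 0.802 over 19 alternatives. Hacd2 lost its call without Fl/Fl replicate 1 (0.145) or null replicate 3 (0.0568), within 0.000527 to 0.483. Tyro3, a receptor tyrosine kinase of the TAM family, read 119 and 78 against 209, 199 and 179 (0.99, SE 0.183, adjusted p = 0.00685) and ended its call without Fl/Fl replicate 2 (0.0963), within 0.00162 to 0.491. For Dennd6b, Fam220a and Rbmx, which also were among the 15 largest rises (1.57, 1.03 and 1.24), other probe sets that reached 20 pointed the other way, so these 3 are uncertain. Bdh2, a dehydrogenase that read 12 and 15 against 67, 28 and 29, completed the 15 (1.27, adjusted p = 0.00548, but 0.0569 without Fl/Fl replicate 1, range 2.33e-07 to 0.725). The fixed lists of lipid metabolism had no rise: of 23 genes of cholesterol and fatty acid synthesis 1 fell and 20 differed by less than 0, with a median of −0.28, and of 22 genes of lipid transport and lipid droplets none passed, 6 had an unadjusted p under 0.05 and the median was −0.08.

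Of the 15 largest falls, 6 were Dsp, the annexin genes Anxa1, Anxa5 and Anxa3, and the actin-binding protein genes Gsn and Tagln, and the other 9 were of varied kinds. Dsp, which encodes desmoplakin, the protein that ties keratin filaments to desmosomes, read 597 and 497 in Fl/Fl and 79, 33 and 34 in null (−3.49, SE 0.535, adjusted p = 0.00145). All null arrays were far below both control arrays, a second bright probe set gave −3.11, and the call held with any 1 day 0 array left out. Dsp did not pass in the limma fit of the 5 day 0 arrays alone (adjusted p = 0.235). The other desmosome genes of the list did not pass: Dsg2 differed by −1.57, Dsc2 by −0.71, and Jup, Pkp2 and Pkp1 by −0.17, −0.09 and 0.00. In all, 6 of the 17 keratin and desmosome genes fell, Dsp and 5 keratins, and none rose. Of 32 genes of tight and adherens junctions none passed, 6 had an unadjusted p under 0.05 and the median was −0.16. Cdh1, the epithelial cadherin of ES cell contacts, read 3912 and 3816 in Fl/Fl and 3746, 3765 and 4073 in null (−0.00, SE 0.194).

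Annexins bind membrane phospholipids in the presence of calcium, and S100 proteins are small calcium sensors that pair with several of them. Of 20 measured annexin and S100 genes 5 fell, none rose and 15 did not pass, with a median of −0.35. Anxa1 read 1255 and 1503 in Fl/Fl and 473, 103 and 82 in null (−3.07, SE 0.667, adjusted p = 0.0229). Anxa5 read 1088 and 703 against 294, 97 and 68 (−2.76, SE 0.501, adjusted p = 0.0059). In both, null replicate 1 was well above the other null arrays, yet below both controls. Without that array Anxa1 differed by −3.84 and with it as the only null array by −1.53, and Anxa5 differed by −3.37 and −1.56. Anxa3 read 424 and 652 against 140, 157 and 59 (−2.22, SE 0.461, adjusted p = 0.0173), and Anxa2 read 1942 and 1371 against 517, 473 and 257 (−2.03, SE 0.342, adjusted p = 0.00341). Here null replicate 1 lay with the other null arrays. S100a13 was dimmer, at 34 and 41 against 25, 21 and 22 (−0.64, adjusted p = 0.00172).

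Anxa2 and S100a13 passed with any 1 day 0 array left out, but not in the limma fit of the 5 day 0 arrays alone (0.473 and 0.397). Anxa1 did not pass without Fl/Fl replicate 1 (0.0852) or 2 (0.0832) or null replicate 2 (0.0895) or 3 (0.111), within a range over 19 alternatives of 2.94e-05 to 0.64. Anxa5 did not pass without Fl/Fl replicate 1 (0.0705, range 2.92e-06 to 0.584), and Anxa3 did not without Fl/Fl replicate 2 (0.0998) or null replicate 3 (0.0919, range 0.00208 to 0.527). The family was not uniform. Anxa6, Anxa4 and Anxa7 differed by −0.52, −0.22 and −0.12 and Anxa8 by 0.65, none passing, and S100a6 read 2755 and 3045 against 2241, 785 and 609 (−1.50, SE 0.536, adjusted p = 0.223). With null replicate 1 as the only null array 2 of the list fell and 1 rose, and without that array 6 fell.

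The 250 bases upstream of the starts of 2 annexins and of the tropomyosin gene Tpm1 are shown because these genes fell and their windows hold letters of motifs searched on both strands in every promoter entry (all from RefSeq, GRCm38.p6). The windows are Anxa1 at chr19:20390672-20390921 (minus strand), Anxa2 at chr9:69453433-69453682 (plus strand) and Tpm1 at chr9:67049214-67049463 (minus strand). Capitals mark TATAAA, the TATA box, TGANTCA, the core of AP-1 sites, and GGAATG or its complement CATTCC, the core of the sites of TEAD factors, which carry YAP and TAZ.
Anxa1: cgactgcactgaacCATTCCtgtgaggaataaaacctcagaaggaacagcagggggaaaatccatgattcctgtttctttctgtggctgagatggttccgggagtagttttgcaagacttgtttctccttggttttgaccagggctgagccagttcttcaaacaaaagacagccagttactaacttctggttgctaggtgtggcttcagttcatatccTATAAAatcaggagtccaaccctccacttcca
Anxa2: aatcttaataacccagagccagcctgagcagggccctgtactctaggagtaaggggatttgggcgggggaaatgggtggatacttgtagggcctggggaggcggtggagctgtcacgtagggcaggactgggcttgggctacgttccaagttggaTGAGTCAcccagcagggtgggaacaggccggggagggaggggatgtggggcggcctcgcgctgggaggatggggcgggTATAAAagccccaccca
Tpm1: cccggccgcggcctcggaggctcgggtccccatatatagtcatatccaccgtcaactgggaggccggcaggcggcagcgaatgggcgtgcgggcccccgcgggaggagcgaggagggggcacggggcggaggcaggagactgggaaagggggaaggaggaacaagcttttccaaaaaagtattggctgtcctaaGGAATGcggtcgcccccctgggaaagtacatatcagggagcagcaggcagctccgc
GGAATG was found on either strand in 20.2% of the 84 falls with a promoter entry that reached 20, in 12.5% of the 32 such rises, and in 10.5% of the 8228 such genes with an entry. TGANTCA was found in 7.14%, 3.12% and 3.88% of them, and TATAAA in 3.57%, 9.38% and 6.14%. The CArG box of serum response factor was searched by the same rule, as CC, 6 bases of A or T, and GG. It was in none of the 84 falls or 32 rises and in 1.13% of the 8228 genes. At that share, finding none in sets of this size carries little information. None of these motifs contains another. A match is a description of the sequence and not a bound site, and these shares were not tested.

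Actin and its partners form the contractile apparatus and stress fibres. Of 32 measured actin and contractile genes 4 fell, none rose and 28 did not pass, with a median of −0.50. The arrays of the groups did not overlap in 19 of the 32 (beside 15.3% of all genes), and 17 had an unadjusted p under 0.05 (beside 11.7%). Besides Acta2, the genes that fell were the actin-binding protein gene Tagln and the tropomyosin genes Tpm1 and Tpm4. Tagln read 1537 and 2874 in Fl/Fl and 625, 523 and 332 in null (−2.13, SE 0.381, adjusted p = 0.0057). Tpm1 read 2052 and 2762 against 1008, 1297 and 984 (−1.13, SE 0.236, adjusted p = 0.0181), and Tpm4 read 2816 and 2364 against 1040, 1556 and 1128 (−1.08, SE 0.216, adjusted p = 0.0132). In these 3 genes every null array lay below both control arrays, and null replicate 1 lay near or among the other null arrays. Tagln did not pass without Fl/Fl replicate 2 (0.0604, range over 19 alternatives 0.000405 to 0.491). Tpm1 did not pass without Fl/Fl replicate 2 (0.129) or null replicate 3 (0.0778, range 0.000606 to 0.425), nor Tpm4 without Fl/Fl replicate 1 (0.128) or null replicate 3 (0.0609, range 0.00134 to 0.491).

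The cytoplasmic actins moved little: Actb differed by 0.10 and Actg1 by −0.09, neither passing. Filamin C (Flnc, −1.59), zyxin (Zyx, −1.09) and caldesmon (Cald1, −1.23) had lower means in null and did not pass. Gsn, gelsolin, which severs actin filaments, read 402 and 461 in Fl/Fl and 211, 34 and 51 in null (−2.50, SE 0.611, adjusted p = 0.0467), and 3 other probe sets gave −3.10, −2.90 and −2.67. Its null replicate 1 lay well above the other null arrays: the difference was −3.25 without it and −1.02 with it alone. The call of Gsn held without that array but not without any other, where the adjusted p was 0.135 to 0.196 (range over 19 alternatives 0.000138 to 0.731). Of 7 smooth muscle markers, 4 read under 20 in all 5 arrays (Myh11, Lmod1, Actg2 and Myocd). The summed level of the 7 was 1677 and 3094 in Fl/Fl against 791, 665 and 499 in null. Most of each sum was Tagln, at 1537 and 2874 against 625, 523 and 332, the only 1 of the 7 that passed. Smtn differed by −0.01, Cnn1 by −0.52 and Myh11 by 0.16. Centring the arrays left 1 of the 32 genes called, with a median of −0.38 beside 0.12 over all genes. Without null replicate 1 the list had 7 falls, without Fl/Fl replicate 2 it had 1, without Fl/Fl replicate 1 it had 2, and without null replicate 3 it had 1.

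**Figure D3:**
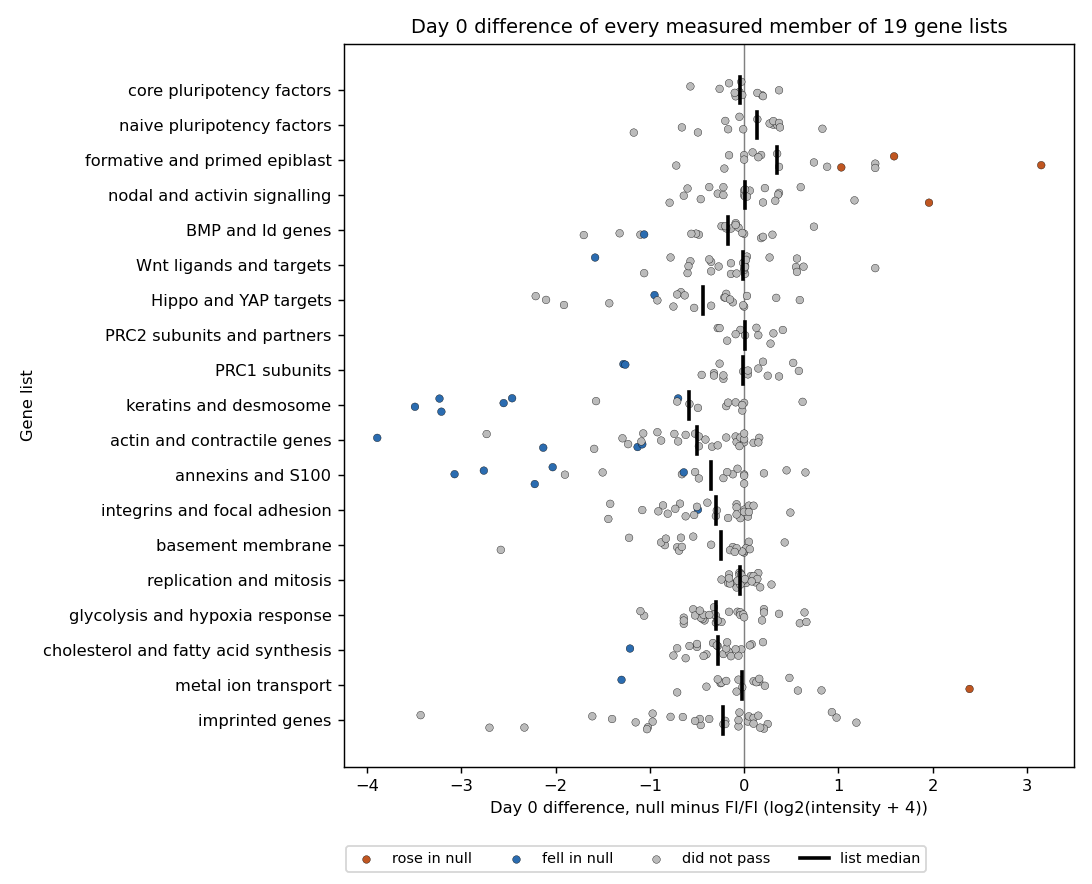
Difference between null and Fl/Fl at day 0 (horizontal axis, log2(intensity + 4)) of every measured member of 19 gene lists. Each point is a gene, orange for a rise, blue for a fall and grey for no call, and the black bar is the list median, which lies at −0.58 for keratins and desmosome, −0.50 for actin and contractile genes and 0.35 for the formative and primed epiblast.

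Of 42 collagens 1 fell and none rose (median −0.08), and of 40 serpins 1 fell and none rose (median −0.04). Col1a1, the alpha 1 chain of type I collagen, read 341 and 124 in Fl/Fl and 90, 16 and 8 in null (−2.89, SE 0.615, adjusted p = 0.0194). Serpinh1, the collagen chaperone HSP47, read 1046 and 908 against 452, 242 and 240 (−1.70, SE 0.372, adjusted p = 0.0238). Bmp1, a protease that trims the C-terminal propeptide of collagens, read 101 and 97 against 17, 19 and 20 (−2.19, SE 0.462, adjusted p = 0.0191). For Bmp1 the null arrays were tightly grouped, whereas for Col1a1 and Serpinh1 null replicate 1 lay between the other null arrays and the controls. Without null replicate 1 Col1a1 differed by −3.76 and Serpinh1 by −2.00, and with it as the only null array by −1.16 and −1.10. Col1a1 is also 1 of the 12 feeder fibroblast markers, and in Fl/Fl it made up a large part of their summed level given above. It was the only marker of the 12 that passed. The other markers that reached 20 also had lower means in null. Col1a2 differed by −1.04, Col3a1 by −0.84, Col5a2 by −0.66 and Pdgfrb by −0.16, none passing. Col5a2 read 41 and 64 in Fl/Fl against 134, 18 and 10 in null, so null replicate 1 was above both controls. The part of feeder cells in this result was not tested. Without Fl/Fl replicate 1 the adjusted p was 0.248 for Col1a1, 0.149 for Serpinh1 and 0.0986 for Bmp1. Without null replicate 2 it was 0.0802, 0.0895 and 0.0521, and without null replicate 3 it was 0.101, 0.101 and 0.0568. Bmp1 also lost its call without Fl/Fl replicate 2 (0.0531). Over 19 alternatives the ranges were 0.000198 to 0.801, 7.14e-07 to 0.491 and 0.000631 to 0.0986.

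Of 22 basement membrane genes none passed, 7 had an unadjusted p under 0.05 and the median was −0.25. Col4a2, a chain of type IV collagen, read 159 and 196 in Fl/Fl and 75, 12 and 18 in null (−2.58, SE 0.719, adjusted p = 0.0909). Of 27 genes of integrins and focal adhesions 1 fell, Itga9, by a small step from 80 and 89 to 59, 60 and 58 (−0.49, adjusted p = 0.043), and the median was −0.30. Its call ended without any 1 of Fl/Fl replicates 1 (0.0805) and 2 (0.19) and null replicates 2 (0.0895) and 3 (0.118), within a range of 0.0043 to 0.376. Tinagl1, a matrix protein that binds integrins, read 71 and 87 against 18, 10 and 10 (−2.34, SE 0.539, adjusted p = 0.0327), and its adjusted p was 0.106, 0.116, 0.1 and 0.11 without the same 4 arrays in turn (range over 19 alternatives 4.06e-06 to 0.295).

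In the Wnt list of 28 genes 1 fell, none rose, 5 had an unadjusted p under 0.05 and the median was −0.01. Only Axin2, a feedback inhibitor and common readout of beta-catenin activity, passed: it read 36 and 64 in Fl/Fl and 25, 10 and 9 in null (−1.58, SE 0.382, adjusted p = 0.0433). Its call ended without Fl/Fl replicate 2 (0.264), null replicate 2 (0.149) or null replicate 3 (0.174), within 0.00337 to 0.664. In the BMP list of 20 genes 1 fell, none rose, 15 differed by less than 0, 5 had an unadjusted p under 0.05 and the median was −0.17. Only Bmpr2, the type II receptor, passed, at 500 and 431 against 233, 258 and 180 (−1.06, SE 0.211, adjusted p = 0.0131). A dimmer probe set of Bmpr2 gave 0.25, and the call ended without Fl/Fl replicate 1 (0.117) or null replicate 3 (0.0729), within 0.000299 to 0.633. Id1, a BMP target, read 365 and 853 against 300, 1605 and 1688, so that null replicate 1 lay below and the other null arrays above both controls (0.74, SE 0.796). Without null replicate 1 the Wnt list had 1 rise and 2 falls and the BMP list no rise and 2 falls, and with that array alone neither list had a call.

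In the list of Hippo and YAP targets 1 of 22 genes fell, none rose and the median was −0.44. Of the 22, 18 differed by less than 0, the groups did not overlap in 11 (beside 15.3% of all genes) and 7 had an unadjusted p under 0.05 (beside 11.7%). Amotl2, which binds and restrains YAP and is also its target, read 703 and 545 in Fl/Fl and 373, 262 and 330 in null (−0.95, SE 0.222, adjusted p = 0.036). Ccn1, a secreted YAP target, read 567 and 909 against 229, 265 and 304 with no overlap, but did not pass (−1.43, SE 0.384, adjusted p = 0.0753). A second probe set of Ccn1 read 198 and 335 against 72, 70 and 90 and passed among all probe sets (−1.69, adjusted p = 0.0291). Ccn2, its relative, read 730 and 1341 against 742, 856 and 983 (−0.21, SE 0.696). The groups thus overlapped for Ccn2 and not for Ccn1. Amotl2 lost its call without Fl/Fl replicate 1 (0.302), null replicate 2 (0.145) or null replicate 3 (0.0896), within 0.00382 to 0.502. Without null replicate 1, 3 of the list fell.

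In the FGF and ERK list none of 23 genes passed, 4 had an unadjusted p under 0.05 and the median was 0.09, with Dusp6 at 0.27 (SE 0.260) and Spry4 at 1.13 (SE 0.498), both feedback inhibitors and readouts of ERK activity. Among genes of other lists, Dusp9 and Il17rd, inhibitors of kinase signalling, fell. Of 24 dual specificity phosphatases, which include Dusp9, 2 fell, none rose and the median was 0.00. Of 28 genes of NF-kB, cytokines and receptors, which include Il17rd, 1 fell, none rose and the median was −0.12. Dusp9, an ERK phosphatase of ES cells, read 1410 and 1549 in Fl/Fl and 969, 523 and 353 in null (−1.38, SE 0.307, adjusted p = 0.0257), and 2 further probe sets gave −1.43 and −1.49. Il17rd, also named Sef, an inhibitor of FGF signalling, read 216 and 154 against 124, 81 and 82 (−0.93, SE 0.196, adjusted p = 0.0185). In both, null replicate 1 was the highest null array and still below the controls: without it Dusp9 differed by −1.77 and Il17rd by −1.12, and with it alone by −0.61 and −0.54. Without null replicate 2 the adjusted p was 0.0834 for Dusp9 and 0.0813 for Il17rd, without null replicate 3 it was 0.121 and 0.0896, and without Fl/Fl replicate 1 it was 0.0915 and 0.245. Dusp9 also lost its call without Fl/Fl replicate 2 (0.0957). The ranges over 19 alternatives were 4.25e-05 to 0.734 and 0.00063 to 0.642.

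Prtg, Ntn1, Pmp22, Nuak1, Slc25a24 and Gng12 were also among the 15 largest falls. Prtg, protogenin, a receptor of the immunoglobulin superfamily of the early embryo, read 558 and 387 in Fl/Fl and 72, 56 and 49 in null (−2.91, SE 0.495, adjusted p = 0.00357). The null arrays agreed closely, other probe sets gave −2.33 and −1.16, and the call held with any 1 day 0 array left out. Prtg did not pass in the limma fit of the 5 day 0 arrays alone (adjusted p = 0.0935). Ntn1, the secreted guidance cue netrin 1, read 123 and 81 against 18, 11 and 11 (−2.61, SE 0.548, adjusted p = 0.0183), and its call ended without Fl/Fl replicate 1 (0.15), null replicate 2 (0.0622) or null replicate 3 (0.0715), within 7.91e-07 to 0.185. At day 2 Ntn1 read 8 and 10 in Fl/Fl and 5 to 7 in null, all under 20. The list of semaphorin, netrin and slit guidance holds Ntn1. Of its 23 genes 1 fell (beside 0.929% of all genes), none rose and the median was −0.06. Pmp22, a membrane protein best known from myelin, read 198 and 157 against 22, 9 and 39 (−2.89, SE 0.549, adjusted p = 0.00836), and it did not pass without Fl/Fl replicate 1 (0.0705, range 0.00128 to 0.491). Nuak1, an AMPK-related kinase, read 125 in both Fl/Fl arrays and 43, 21 and 6 in null (−2.50, SE 0.508, adjusted p = 0.0146), and did not pass without Fl/Fl replicate 1 (0.0746) or null replicate 3 (0.0729, range 0.000264 to 0.65). Slc25a24, a mitochondrial carrier of ATP and phosphate (−2.38, adjusted p = 0.00564), and Gng12, a G protein gamma subunit (−2.31, adjusted p = 0.0124), completed the 15 largest falls. The first lost its call without Fl/Fl replicate 2 (0.0571, range 0.000431 to 0.518) and the second without Fl/Fl replicate 1 (0.128), null replicate 2 (0.0548) or null replicate 3 (0.0689, range 8.21e-05 to 0.528).

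Among the Polycomb genes 2 of PRC1 and none of PRC2 passed, and the difference between these lists was not tested. Jarid2 itself read 3335 and 3340 in the arrays labelled Fl/Fl and 4082, 2943 and 2872 in those labelled null (−0.04, SE 0.260, adjusted p = 1). The sources used here do not place its probe sets in or outside the deleted part, so its level does not check the labels. None of 11 PRC2 subunits and partners passed, the groups did not overlap in 5, 2 had an unadjusted p under 0.05 and their median was 0.01: Ezh2, the methyltransferase, differed by −0.28 (SE 0.288), Suz12 by 0.01 (SE 0.218), Eed by 0.31 (SE 0.149) and Mtf2 by 0.15 (SE 0.289). Of 17 PRC1 genes 2 fell (beside 0.929% of all genes) and none rose, with no overlap in 6, 4 at an unadjusted p under 0.05 and a median of −0.01. Without Fl/Fl replicate 1 each list had 1 fall. Without null replicate 1 PRC1 had 1 rise and 2 falls (median −0.21) and PRC2 no call, and with that array alone PRC1 had 1 fall (median 0.16) and PRC2 1 rise. Phc2, a Polyhomeotic subunit of canonical PRC1, read 412 and 548 in Fl/Fl and 197, 201 and 191 in null (−1.26, SE 0.187, adjusted p = 0.00116), and a second probe set gave −1.40. The 3 null arrays were nearly equal and the call held with any 1 day 0 array left out. Phc2 did not pass in the limma fit of the 5 day 0 arrays alone (adjusted p = 0.168). Pcgf5, a subunit of variant PRC1, read 491 and 366 against 230, 157 and 142 (−1.28, SE 0.230, adjusted p = 0.0058) and did not pass without Fl/Fl replicate 1 (0.0852, range 0.000637 to 0.493). The paralog Phc1 differed by 0.04 and Rnf2, the ubiquitin ligase of PRC1, by −0.32 (SE 0.098, adjusted p = 0.115). Bcor, a corepressor of a variant PRC1 and named here after its values were seen, rose from 233 and 229 to 404, 440 and 459 (0.90, adjusted p = 0.00234).

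Genes that PRC2 is known to hold silent were mostly near the floor. Only 2 of 32 Hox genes reached 20 in any day 0 array, and 1 of the 32 passed, Hoxb5, at 7 in both Fl/Fl arrays and 6 in each null array, a step of 1 unit. Of 54 other developmental factors known as Polycomb targets 13 reached 20, none of these passed, and the median of the 54 was −0.02. The 1 member that passed, Neurog1, read under 20 throughout. At this sensitivity no rise from the floor was detected among the genes of these lists in null at day 0. The 5 arrays also gave no rise or fall in the lists of mesoderm (17 genes), neuroectoderm (17) and primitive and visceral endoderm (24), in which 0, 2 and 3 genes had an unadjusted p under 0.05. In the trophoblast list of 19 genes Rhox9, an X-linked homeobox gene, fell from 163 and 229 to 132, 18 and 33 (−2.04, SE 0.452, adjusted p = 0.0257), and the list median was −0.62. Of the 19, 17 differed by less than 0, 8 had an unadjusted p under 0.05 (beside 11.7% of all genes), and the median was −0.15 in null replicate 1 and −0.62 in each of null replicates 2 and 3. The list had 4 falls without null replicate 1 and none with that array alone. The level of Rhox9 in null replicate 1 lay near the lower control array: the difference was −2.79 without it and −0.54 with it alone. The call held without null replicate 1 but not without any other array (0.0594 to 0.127, range over 19 alternatives 8.14e-06 to 0.802).

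The regulators that define the ES cell state did not pass. None of 12 core factors did (median −0.04), nor any of 15 naive factors (0.14) or 18 genes of the LIF receptor and STAT3 response (−0.02), and 0, 1 and 5 of these had an unadjusted p under 0.05. Nanog read 4989 and 4466 in Fl/Fl and 4157, 2573 and 2972 in null (−0.57, SE 0.462), and Esrrb read 1875 and 1609 against 2018, 931 and 1010 (−0.49, SE 0.359). In both, null replicates 2 and 3 were lower than every other array. Tfcp2l1, a naive factor downstream of LIF, read 924 and 841 against 618, 252 and 381 (−1.17, SE 0.477, adjusted p = 0.318). Pou5f1 and Sox2 differed by −0.09 and 0.19. Socs3, the STAT3 target that damps LIF signalling, read 1261 and 1535 against 2017, 1659 and 1878 with no overlap (0.41, SE 0.324, adjusted p = 0.73).

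General cell functions gave few calls. No gene passed among 27 of replication and mitosis (median −0.04), 26 cell cycle drivers and inhibitors (−0.10), 24 of DNA repair (0.03), 26 of the unfolded protein response and chaperones (0.04), 27 of the interferon response (0.02) or 33 of glycolysis and hypoxia (−0.30). In the same order 0, 3, 3, 3, 2 and 5 of them had an unadjusted p under 0.05, beside 11.7% of all genes. Slc2a3, the glucose importer GLUT3, came closest in the last list, at 16740 and 14203 in Fl/Fl against 11736, 11757 and 10274 in null (−0.46, SE 0.121, adjusted p = 0.0711). Its other probe sets gave −0.39, −0.35 and 0.16, and the groups overlapped in those at −0.35 and 0.16. Among 23 genes of cholesterol and fatty acid synthesis Scd2, a desaturase that makes monounsaturated fatty acids, fell from 5826 and 3419 to 1428, 2252 and 2219 (−1.21, SE 0.210, adjusted p = 0.00429). In the probe set used the null arrays lay below both controls, and Scd2 did not pass without Fl/Fl replicate 1 (0.107, range 0.000225 to 0.693). The highest of these came with the mean of all probe sets. Another probe set of Scd2 read 1536 and 430 in Fl/Fl against 214, 710 and 614 in null (−0.84). A dimmer one read 226 and 17 against 6, 209 and 132 (−0.07). The groups overlapped in both. Among 19 genes of metal ion transport Slc39a8 rose, as given above, and Slc40a1, ferroportin, the cellular iron exporter, fell from 280 and 279 to 128, 140 and 77 (−1.30, SE 0.319, adjusted p = 0.049). The call of Slc40a1 ended without Fl/Fl replicate 1 (0.187) or 2 (0.12) or null replicate 2 (0.0548) or 3 (0.196), within 0.00622 to 0.527.

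Of 347 solute carriers 1 rose and 3 fell. Of 356 zinc finger proteins none rose and 3 fell, and 1 of these falls reached 20. Of 209 genes of ubiquitin conjugation and removal 1 rose and 3 fell, and again 1 of the falls reached 20. Over all genes 0.247% rose and 0.929% fell, and the classes were not tested against these shares. Of 98 genes of the respiratory chain and ATP synthase none passed, with 11 at an unadjusted p under 0.05. Mitochondrial ribosomal proteins had a median of 0.16 over 76 genes, and 58 of them differed by more than 0. The groups did not overlap in 24 (beside 15.3% of all genes), and 14 had an unadjusted p under 0.05 (beside 11.7%). Of these 76 genes 1 rose, Mrps18c, at 1006 and 1277 in Fl/Fl and 1535, 1687 and 1686 in null (0.53, adjusted p = 0.0272). It did not pass without Fl/Fl replicate 1 (0.374), null replicate 2 (0.0882) or null replicate 3 (0.1), within 0.00442 to 0.527. Of 54 cytoplasmic ribosomal proteins, Rps28 (−0.24) and Rps24 (−0.17) fell slightly, and another probe set of Rps24 pointed the other way. Of 33 imprinted genes none passed, although Meg3 had a mean difference of −3.43 (SE 1.850, adjusted p = 0.49) and null replicate 1 near the control arrays, as given above; 7 of the 33 had an unadjusted p under 0.05.

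The day 0 differences were followed over the later days. Of the 34 rises that reached 20 at day 0, all 34 had the same sign at day 2 and 5 passed there. Of the 99 falls 85 had the same sign and 26 passed. Beside these, 7175 of all 10089 genes that reached 20 had the same sign at day 2, and 82 of them passed there. These comparisons use other arrays than day 0. At day 2, 19 of all genes rose (0.104%) and 94 fell (0.517%). At day 4, 13 of the 34 rises and 52 of the 99 falls passed in the same direction and 2 falls passed in the opposite one. Of all 10089 genes, 1507 passed at day 4 in the direction of their day 0 difference and 352 in the opposite one. More calls at day 4 than at day 2 were thus not particular to the genes called at day 0. By day 8 the counts were 1 of the 34 rises and 4 of the 99 falls. The count over all 10089 genes was also lower at day 8 than at day 4. Both null arrays of day 8 read 12 for Tmem87a, and Meg3 read 1902 and 578, levels nearer to those of null replicate 1 of day 0 than to those of null replicates 2 and 3. On the other days most null arrays read 172 to 348 for Tmem87a, 2 of 3 on day 0 and 3 of 5 on each of days 2, 4 and 6. The part of this in the lower counts of day 8 was not tested. The median difference of the 15 largest rises was 1.27, 0.70, 0.24 and 0.05 on days 0, 2, 4 and 8, whereas that of the 15 largest falls was −2.50, −2.09, −2.66 and −0.59. Foxd3 differed by 1.36 at day 2 and 1.57 at day 4 and Mcf2 by 1.58 at day 2, each past the threshold, and Dsp by −4.14 and −4.17. The difference itself changed between day 0 and day 2 in 14 genes (0.0769%), of which Inhbb, Fem1a, Ly6g6e and St18 read 20 or more in at least 1 day 0 array.

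**Figure D4:**
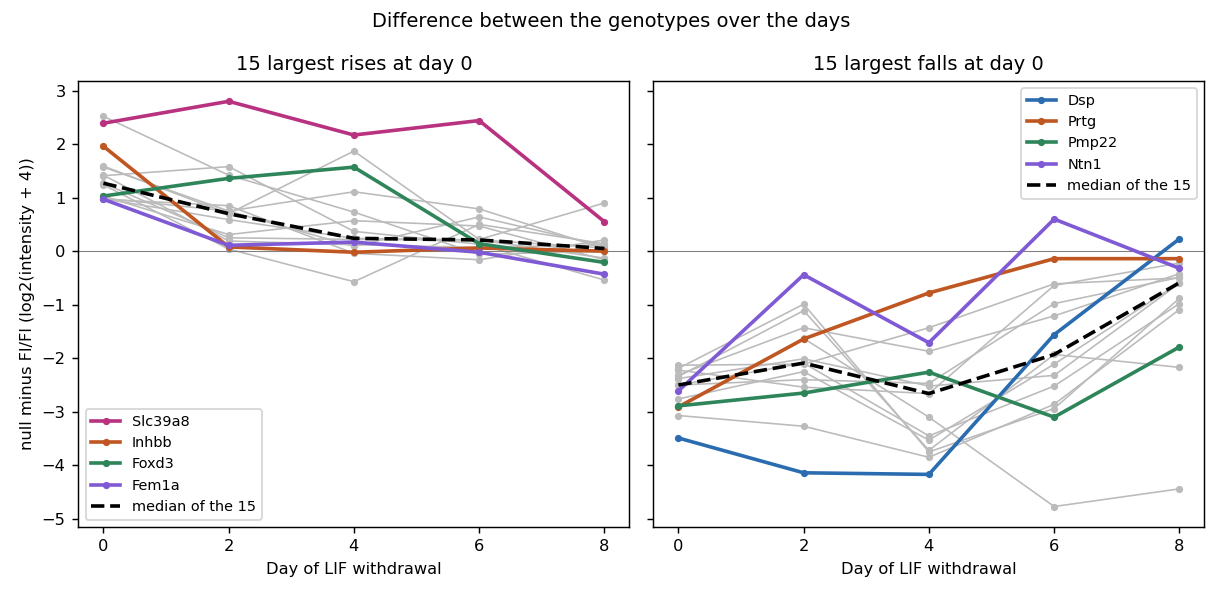
Difference between null and Fl/Fl (vertical axis, log2(intensity + 4)) on days 0 to 8 of LIF withdrawal for the 15 largest rises (left) and falls (right) of day 0. Each line is a gene, 4 per panel are coloured, and the dashed line is the median, which goes from 1.27 to 0.05 for the rises and from −2.50 to −0.59 for the falls; Inhbb and Fem1a are near 0 from day 2, while Slc39a8 stays above 2 until day 6. Both null arrays of day 8 read low for Tmem87a, unlike most null arrays of the other days.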

How the data were processed

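Total RNA was extracted with Trizol and made into biotinylated cRNA for Affymetrix arrays, per the labels' protocols. The deposited values are intensity per probe set on a linear scale in whole numbers; for background correction, summary and normalization: not given in the sources used here. Array means lay between 331.8 and 363.6 over the series, and the number of arrays limits the precision. Of 45101 probe sets, 34958 named 1 gene in the platform annotation, 932 several and 9211 none. For each gene the probe set with the highest mean over all 30 arrays was used, giving 18194 genes with no filter on low signal. On log2(intensity + 4), limma 3.58.1 (R 4.3.3) was fitted with a mean for each of the 10 groups (20 residual degrees of freedom), so that the other groups share in the estimate of spread; tests were two-sided with Benjamini-Hochberg adjustment over all genes. The fit was tested on simulated data. Named were the 15 largest rises and falls at an adjusted p under 0.05 with non-overlapping arrays (without keratins, Acta2, Otx2 and unnamed models), up to 4 called members of each of 54 lists, up to 3 of each of 26 symbol classes, 32 fixed genes (31 measured, 4 called), and in lists with no call the member with the smallest p; genes of unsure role were left out. The members, lists and rule were chosen with earlier results of these data known. Promoter windows are 250 bases upstream of the RefSeq start, matched for 14368 genes. Alternatives included other pseudocounts, normalizations and filters and leaving out each array.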

Additional observations from a re-analysis of the deposited data

Results flagged for a closer look

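The difference between null and Fl/Fl at day 2 was itself set against that at day 0, and 14 genes passed at an adjusted p under 0.05 (limma, 18194 genes). In 4 of them an array of day 0 reached 20. Inhbb changed by −1.88: its null arrays read 94, 97 and 102 at day 0 and its day 2 arrays 5 or 6 in both genotypes. Fem1a changed by −0.86, from 36 and 42 against 75, 77 and 89 at day 0 to 78 and 69 against 77 to 82 at day 2. Ly6g6e, which read 34 and 30 against 20, 14 and 15 at day 0, changed by 1.06. St18, a zinc finger factor that read 24 and 24 against 14, 15 and 13, changed by 0.68.

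The other 10 genes lay under 20 in every day 0 array. Their changes were 0.40 for Fbxw18, 0.27 for Magef1, 0.20 for Csrnp3, 0.15 each for Mmp10, Scrg1, Acnat2 and 1700065I16Rik, 0.13 for Olfr1507, −0.22 for 1700001G11Rik and −0.31 for Slfn2. Several rest on a step of 1 unit in 1 group whose arrays were all equal.

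Among the 15 largest rises and 15 largest falls, 2 of the 30 genes had a null day 2 array far from the other 4, where chance gives about 1 in 20 groups. Rbmx read 101 in null day 2 replicate 1 and 53 to 64 in the other null arrays of that day. Col1a1 read 19 in null day 2 replicate 4 and 34 to 39 in the others. The day 0 groups hold 2 and 3 arrays, too few for this check.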

How the results depend on the processing

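The count of 214 genes stayed within 1.5 times of itself under 6 alternatives (pseudocounts 1 and 16, quantile normalization, an intensity trend, array weights and the mean of all probe sets), with 150 (mean of all probe sets) to 212 (intensity trend) of the 214 called again. With Fl/Fl and null day 0 arrays only it was 143, of which 72 were among the 214. It was 67 with centred arrays, 113 once the dimmest 40% of genes were dropped, 123 with only the 5 day 0 arrays (36 of the 214 still called) and 626 with only the null arrays whose Eif2s3y lay above Fl/Fl. Leaving out 1 day 0 array gave 103 (without null replicate 3) to 669 (without null replicate 1). Of choices added after seeing the data, null arrays with Tmem87a above Fl/Fl gave 2601 and null replicate 1 alone 465. The 14 genes whose difference changed by day 2 became 22 with quantile normalization, 1 with centring, 0 without the dimmest 40% (limma; 297 of those genes had an unadjusted p under 0.05, beside 902 of all), 35 with the Eif2s3y choice, 27 with array weights, 139 with the Tmem87a choice and 299 with null replicate 1 alone; leaving out 1 array of day 0 or 2 gave 13 to 252. With the replicate number as a block 182 genes were called (158 of the 214 among them) and 14 changed by day 2. Deviations of same-numbered day 0 arrays from their genotype mean correlated at −0.196 and −0.199. The deviations of the 2 Fl/Fl arrays mirror each other, so these values cannot decide whether the numbers pair arrays. Of 71 named called genes, 70 kept their direction throughout; Rps24 turned to 0.04 with the mean of all probe sets. Leaving out 1 day 0 array kept 28 (without Fl/Fl replicate 1) to 70 (without null replicate 1) of the 71, and 18 were kept in all 5 such fits. Only 1 of the 71, Otx2, kept its call under every alternative. Among the 214, 7 genes near the floor changed sign with centring. The floor of the arrays and the 5 arrays limit what can be seen: a gene under 20 throughout has no measurable difference here.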
